A study of Mus musculus with 947 samples.

Results

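The miR-15, miR-16 and miR-322 family was followed through 16 mouse tissues over the lifespan and through 6 tissues of surgically joined mice. Its 7 measured members are mmu-miR-15a-5p, mmu-miR-15b-5p, mmu-miR-16-5p, mmu-miR-195a-5p, mmu-miR-497a-5p, mmu-miR-322-5p and mmu-miR-503-5p, named without the species prefix from here on. They were chosen by name, as the mature 5p miRNAs of the clusters that carry this family, and all 7 were found among the 1076 miRNAs of the aging cohort and the 795 miRNAs of the parabiosis cohort.

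The aging cohort held 769 small RNA libraries from C57BL/6JN mice of 10 ages, namely 1 month and every 3 months from 3 to 27 months, with 1 to 6 libraries per tissue and age. Males were sampled at every age and virgin females up to 21 months, and all mice were perfused before the organs were taken. The parabiosis cohort held 176 libraries from males of 15 joined pairs, in which a pair of mice shares one circulation. Aged mice of 19 months were joined either to young mice (heterochronic aged, HA) or to each other (isochronic aged, IA). The 4-month-old partners of the HA mice are the heterochronic young group (HY), and the isochronic young mice (IY) were 3 or 4.5 months old. All HY mice were of a different strain from the other groups. IY, HA and IA mice were C57BL/6J or C57BL/6JN, and the study's descriptions differ on which of them were of which substrain. For HY against any other group, age or partner and strain therefore cannot be told apart. Substrain could also differ among IY, HA and IA mice, and its part in contrasts of these groups was not tested. All 4 parabiosis groups share the surgery.

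A microRNA guides Argonaute proteins to messenger RNAs, mainly through its seed, the bases near the 5′ end that pair with the target. The miR-15 and miR-16 group is known as a brake on the cell cycle, with cyclin and Bcl2 transcripts among its established targets, and loss of the miR-15a and miR-16-1 locus is a classic lesion of B-cell leukaemia. The miR-497 and miR-195 pair has been tied to the exit of muscle and heart cells from the cycle, and miR-322, which is called miR-424 in humans, and miR-503 have been tied to muscle and fat cell differentiation and to vessels.

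The 7 members come from 4 genomic clusters of 2 neighbouring hairpins each. They are shown here because the shared seed makes them one family, whereas the bases behind it decide how well an assay separates them. RefSeq sequences on GRCm38.p6 are given 5′ to 3′ with the seed, bases 2 to 8, in capitals.
miR-15a-5p: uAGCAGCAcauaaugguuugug
miR-15b-5p: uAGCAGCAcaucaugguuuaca
miR-16-5p: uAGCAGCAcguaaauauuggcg
miR-195a-5p: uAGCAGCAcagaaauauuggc
miR-497a-5p: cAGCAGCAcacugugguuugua
miR-322-5p: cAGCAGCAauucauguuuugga
miR-503-5p: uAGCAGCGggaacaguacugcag

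The seed AGCAGCA was identical in 6 members, and miR-503-5p had AGCAGCG. Another 4 RefSeq mature miRNAs with the seed AGCAGCA, among them miR-195b and miR-6342, had no row in the aging table. Behind the seed the closest pair was miR-16-5p and miR-195a-5p, which were identical at 19 of the 21 positions compared and at 11 of 13 after base 8. Their loci lie on different chromosomes. Reads of both miRNAs were assigned with up to 1 mismatch, and a transfer of reads between them was not tested.

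The first cluster lies on the minus strand of chromosome 14 in an intron of the noncoding gene Dleu2, with miR-15a-5p at chr14:61632075-61632096 and miR-16-5p from Mir16-1 at chr14:61631936-61631957, 117 bases apart. The second lies on the plus strand of chromosome 3 in an intron of Smc4, a condensin subunit, with miR-15b-5p at chr3:69009775-69009796 and the second copy of miR-16-5p at chr3:69009918-69009939. Both miR-16 loci give the same mature molecule, so the level of miR-16-5p is the sum of both. The miR-497a-5p and miR-195a-5p arms lie on the plus strand at chr11:70234730-70234751 and chr11:70235062-70235082. The miR-503-5p and miR-322-5p arms lie on the minus strand of the X chromosome at chrX:53054027-53054049 and chrX:53054306-53054327, 256 bases apart.

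Levels are given in rpmm, reads per 1000000 mapped reads of the library, as deposited. In units of 1000000 reads, mapped reads per library ranged from 2.29 to 167 in the aging cohort and from 9.20 to 47.6 in the parabiosis cohort, so that 3 reads, the least taken as a level, were worth 0.0180 to 1.31 rpmm. The miRNA share of all rpmm ranged from 0.798% to 50.03%, and in 62 aging libraries, 8 of them BAT, it lay under 50% of the median of their tissue. In 10 aging libraries the miRNA profile was closest to the centre of another tissue, among them all 3 MAT libraries of 27 months. Marker miRNAs were highest in the tissue they define for brain, heart, limb muscle, liver, pancreas, skin and small intestine. In bulk tissue, fewer cells of a type and less RNA per cell cannot be told apart.

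All members were present in every aging library, apart from miR-503-5p, which was at 0 in 1 pancreas library of a 21-month-old female. Over all libraries the medians ran from 39.8 rpmm for miR-503-5p to 2749 rpmm for miR-16-5p.

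miR-16-5p had the highest median of the family in 15 of the 16 tissues, and miR-15a-5p in pancreas. miR-16-5p was highest in marrow, at a median of 7391 rpmm over 56 libraries, followed by spleen at 5566 and lung at 5129 rpmm. The mean was higher in marrow than in spleen by 0.54 (permutation test on log2(rpmm + 1), adjusted p = 9.55e-05), although libraries of both tissues overlapped. Spleen and lung did not differ in the same test (adjusted p = 0.640). From kidney at 3664 down to small intestine at 2549.7 rpmm, no neighbouring tissues differed. The pancreas stood at the other end at 196 rpmm, below limb muscle at 1426 rpmm (permutation test, adjusted p = 9.55e-05). miR-15a-5p, its neighbour on chromosome 14, had the flattest distribution of the family, with 3258 rpmm in marrow and 772 rpmm in pancreas, a range of medians of 4.22-fold against 37.7-fold for miR-16-5p. Limb muscle and pancreas did not differ in miR-15a-5p (permutation test, adjusted p = 0.811).

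miR-15b-5p had a steeper profile than the chromosome 14 member that resembles it most in sequence, at 18 of 22 positions. Its median was 1927 rpmm in marrow and 912 rpmm in spleen, and fell to 58.0 in limb muscle and 40.3 in brain, a range of 47.8-fold. Marrow against spleen, spleen against lung, and limb muscle against brain all differed in mean log2 (permutation test, adjusted p = 9.55e-05, 0.00565 and 0.00649). The miRNAs whose 16 tissue medians ordered most like those of miR-15b-5p were miR-142a-5p, miR-223-5p and miR-142a-3p, which are known from blood cells, with Spearman's rho of 0.938, 0.938 and 0.926 over the 16 tissues. miR-142a-3p and miR-142a-5p are themselves on the list used here for white blood cells.

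miR-195a-5p and miR-497a-5p were highest in lung and in white fat. miR-195a-5p had medians of 1031 rpmm in lung, 1029 in SCAT and 825 in GAT, which did not differ from each other in turn (permutation test, adjusted p = 0.966 and 0.913). It was lowest in marrow at 65.2 and pancreas at 38.8 rpmm. miR-497a-5p was at 1076 rpmm in SCAT, 979 in GAT and 924 in lung, and its lowest 4 tissues, limb muscle, pancreas, liver and marrow, lay between 121 and 96.9 rpmm without a step that passed the test. The marrow, where miR-15a-5p, miR-15b-5p, miR-16-5p and miR-503-5p had their maximum, thus had the lowest median of miR-497a-5p and the next to lowest of miR-195a-5p.

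The X-linked members had different maxima. miR-322-5p was highest in GAT at 1925, SCAT at 1683, BAT at 1512 and heart at 1425 rpmm, and lowest in brain at 141 and pancreas at 47.6 rpmm. BAT and heart are ordered here by their medians, but the mean on the log2 scale was lower in BAT (-1.47, permutation test, adjusted p = 0.000675). miR-503-5p was highest in marrow at 169 and lung at 132 rpmm (permutation test, adjusted p = 0.00468 between them) and reached 9.09 in brain and 1.76 in pancreas, the widest range of the family at 95.9-fold. The ratio of miR-322-5p to miR-503-5p accordingly ran from a median of 3.25 in marrow to 29.2 in BAT. Over the family, 40 of the 105 steps between neighbouring tissues passed the test of the difference in mean log2. In 3 of the 40, all with BAT, whose libraries were widely spread, the mean lay against the order of the medians. Besides miR-322-5p these were miR-15a-5p from BAT to heart (-1.09, adjusted p = 0.00390) and miR-503-5p from BAT to spleen (-1.08, adjusted p = 0.00728).

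**Figure D1:**
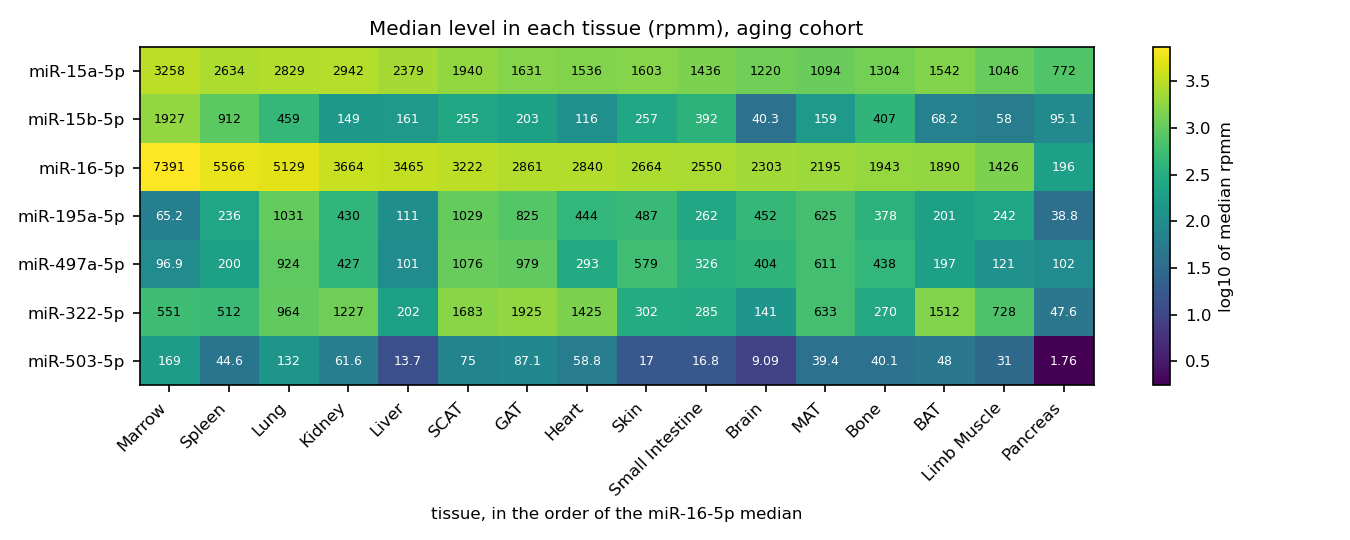
Median level in rpmm of each of the 7 members (rows) in each of the 16 tissues of the aging cohort (columns, ordered by miR-16-5p). Colour is the log10 of the median and each cell prints the median itself. Marrow holds the highest cell of miR-15a-5p, miR-15b-5p, miR-16-5p and miR-503-5p, and pancreas holds the lowest cell of 5 of the 7 rows.

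Since the miRNA share differs between tissues, the order was also read after each library was rescaled to the same total of miRNA signal. The highest tissue was the same for 6 members, and for miR-195a-5p it became SCAT in place of lung. The lowest tissue of miR-15a-5p and miR-497a-5p became limb muscle and that of miR-322-5p became brain, while pancreas stayed lowest for miR-16-5p, miR-195a-5p and miR-503-5p. On this scale the family took up a median of 6.39% of the miRNA signal in marrow, 4.24% in spleen, 2.80% in SCAT, 0.795% in brain and 0.616% in limb muscle.

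Ratios within a cluster do not depend on the scale of a library. The ratio of miR-16-5p to miR-15a-5p had medians from 1.09 in BAT to 2.18 in spleen in 15 tissues, but 0.247 in pancreas, where it lay under 1 in 44 of 45 libraries. The remaining library, pancreas of 3 months replicate 02, had a ratio of 2.30, and its miRNA profile was closer to limb muscle than to pancreas. miR-15a-5p alone made up a median of 59.7% of the family signal in pancreas, against 25.0% in marrow, where miR-16-5p made up 53.2%. The ratio of miR-497a-5p to miR-195a-5p was also highest in pancreas, at a median of 2.59 against 1.52 in marrow. The difference between pancreas and the other tissues was given no test.

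**Figure D2:**
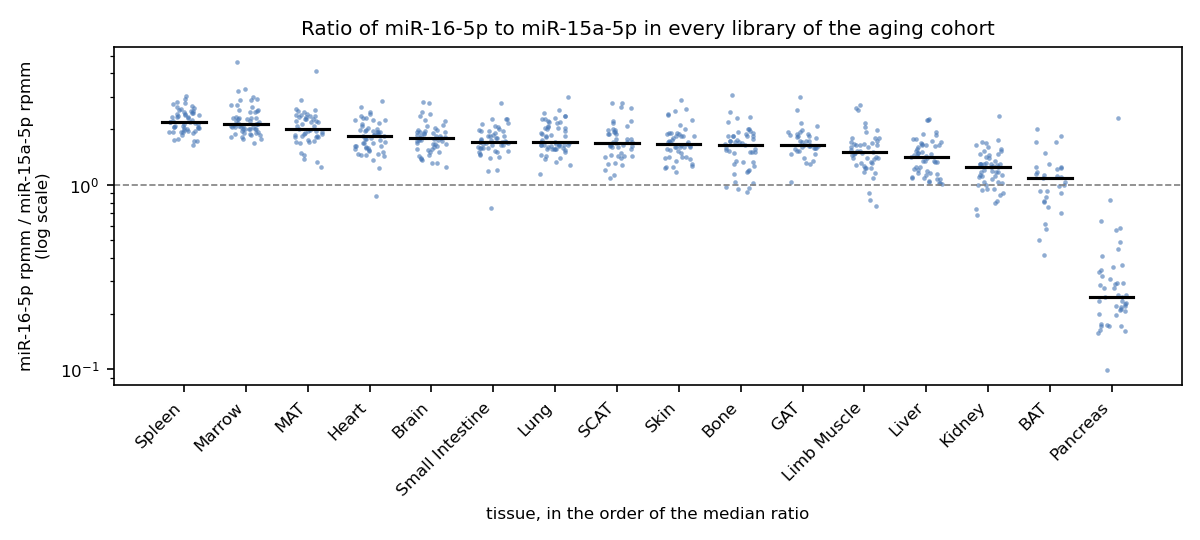
Ratio of the rpmm of miR-16-5p to that of miR-15a-5p on a log scale, with 1 point per library and a bar at the median of each tissue, in the order of the medians. The dashed line marks equal levels, and 44 of 45 pancreas libraries lie below it.

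Across the 16 tissue medians, members of one cluster were not equally alike. Spearman's rho was 0.929 for miR-15a-5p and miR-16-5p, 0.938 for miR-195a-5p and miR-497a-5p and 0.779 for miR-322-5p and miR-503-5p, whereas miR-15b-5p and miR-16-5p, neighbours on chromosome 3, reached 0.653. Within a tissue, over libraries, the median rho was 0.800 for miR-15a-5p with miR-16-5p, 0.637 for miR-322-5p with miR-503-5p, 0.634 for miR-15b-5p with miR-16-5p and 0.585 for miR-195a-5p with miR-497a-5p. miR-16-5p with miR-195a-5p, from different chromosomes and alike in sequence, had a median of 0.817 and a range over tissues of 0.505 to 0.942. These libraries share depth and miRNA share, and the values are given as a description. The medians of miR-503-5p were most like those of miR-450b-3p, miR-542-5p and miR-450b-5p (rho of 0.971, 0.959 and 0.956), all from hairpins of the same stretch of the X chromosome.

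Aging was first read as Spearman's rho of rpmm with age in months. Values beyond 0.5 in either direction were called. Of 112 pairs of member and tissue, 6 rose (background over all miRNAs 3.75%) and 5 fell (background 4.31%), and 28 had an adjusted permutation p under 0.05 (background 17.9%). With 112 pairs tested, the counts of rising and of falling pairs were near their background. The rising pairs were miR-497a-5p in GAT and small intestine, miR-195a-5p in MAT and small intestine, miR-15a-5p in liver and miR-16-5p in BAT. All 5 falling pairs were of the X-linked cluster, namely miR-322-5p in lung and pancreas and miR-503-5p in lung, pancreas and skin. Of the 237 pairs of the 17 other arms and neighbours of these clusters, 4 rose and 15 fell. No member was called in bone, brain, heart, kidney, limb muscle, marrow, SCAT or spleen.

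**Figure D3:**
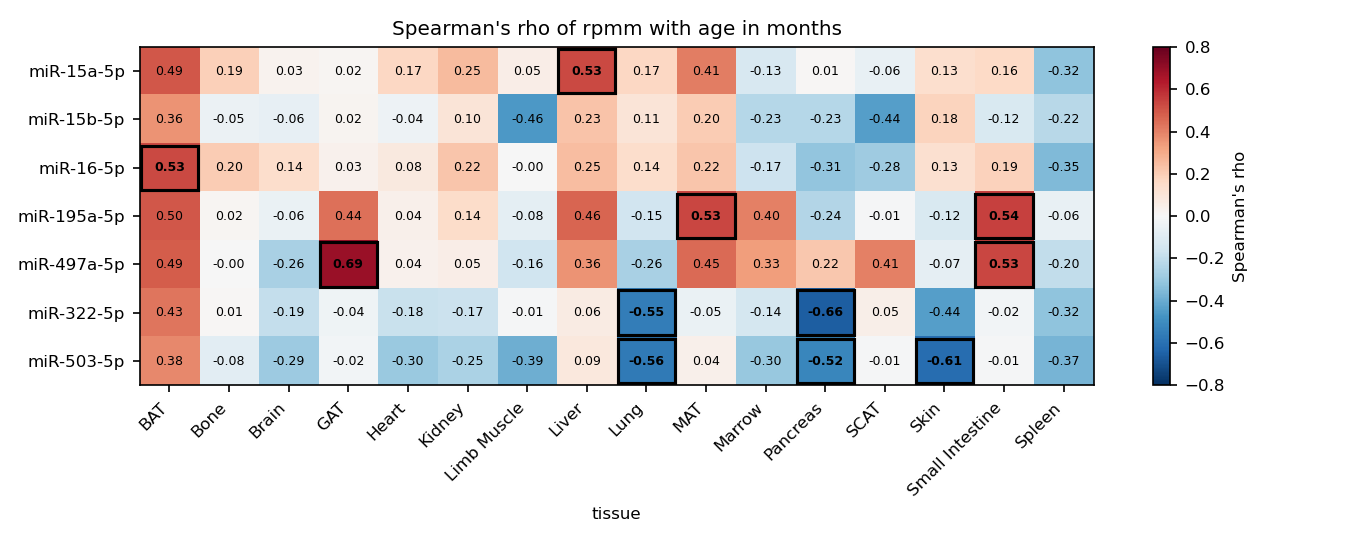
Spearman's rho of rpmm with age for the 7 members (rows) in 16 tissues (columns), printed in each cell and coloured from blue (falling with age) to red (rising). Boxes mark the 11 cells beyond 0.5 in either direction, with the falling ones all in the rows of miR-322-5p and miR-503-5p.

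In lung, miR-322-5p fell over the lifespan (rho = -0.55 over 55 libraries, permutation test, adjusted p = 0.00119, background of falling miRNAs in lung 2.36%). Its 6 libraries at 3 months ranged from 783 to 2653 rpmm with a median of 2246. At 24 months the 4 libraries were at 415, 418, 457 and 652 rpmm, all below the lowest of 3 months, and at 27 months they were at 107, 341, 599 and 1025 rpmm, which overlapped it. The log2 difference from 3 months was -1.87 (SE 0.44, adjusted p = 0.0130) at 24 months and -2.17 (SE 0.44, adjusted p = 0.00497) at 27 months, in a fit with limma on log2(rpmm + 1) where the background of lower calls was 0.169% and 1.69%. At 24 months miR-322-5p was the 1 lower call among 593 miRNAs tested in lung, and the call was lost without replicate 50 of that age (adjusted p = 0.0576), in males only (-1.97, adjusted p = 0.0606), and with the set of title numbers (-1.56, adjusted p = 0.0658) or the plate (-1.90, adjusted p = 0.145) as a covariate. The 27-month library at 107 rpmm, replicate 42, had a miRNA share of 3.88%. Without it the difference was -1.55 (adjusted p = 0.126), whereas without all libraries of low miRNA share in lung, 6 in number, it was -2.02 (adjusted p = 0.0274).

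miR-503-5p fell in lung as well (rho = -0.56, permutation test, adjusted p = 0.000539). Without the 1-month libraries the rhos in lung were -0.46 for both. Its 3-month libraries ran from 142.2 to 279 rpmm with a median of 197, and the 27-month ones stood at 45.5, 45.6, 97.6 and 122.5 rpmm, below all of those at 3 months. The log2 difference at 27 months was -1.52 (SE 0.40, adjusted p = 0.0227), which was -1.24 (adjusted p = 0.21) after scaling to miRNA reads and -1.13 (adjusted p = 0.441) without the libraries of low miRNA share. Neighbours on the X chromosome fell in lung as well. miR-450a-1-3p, miR-450a-2-3p, miR-450a-5p, miR-450b-3p, miR-450b-5p, miR-542-3p and miR-542-5p all had rho between -0.74 and -0.51, and at 27 months 5 of them were lower than at 3 months, from -1.15 for miR-450a-1-3p to -2.21 for miR-542-5p. None of the marker miRNAs of blood, endothelium or fibroblasts was called in lung between 27 and 3 months, and the fibroblast markers differed by -0.49 to -0.15 on the log2 scale. Over all ages in lung, rho with age was 0.26 to 0.41 for white blood cell markers and -0.03 to 0.20 for fibroblast markers. Their part in the result was not tested.

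In pancreas, miR-322-5p had the largest fall with age among the members (rho = -0.66 over 45 libraries, permutation test, adjusted p = 0.00118, background in pancreas 1.27%). The 1-month libraries ranged from 121 to 188 rpmm with a median of 141, those of 3 months from 8.17 to 101.1 with a median of 82.7, those of 12 months from 29.2 to 69.0 and those of 21 months from 22.9 to 47.96 with a median of 30.1 rpmm. The groups of 1 and 21 months did not overlap. The call held without the 1-month libraries (rho = -0.52), on the scale of miRNA reads (rho = -0.71), without pancreas of 3 months replicate 02 (rho = -0.74) and in males only (rho = -0.54).

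miR-503-5p dropped in pancreas mostly between 1 and 3 months. At 1 month its 5 libraries held 7.05, 9.83, 12.0, 12.7 and 14.8 rpmm, and at 3 months 0.717, 0.854, 2.45, 3.11 and 4.74 rpmm, without overlap. The log2 difference was -1.98 (SE 0.36, limma, adjusted p = 0.000218, background of lower calls in pancreas 2.53%), while the median over all miRNAs of the pancreas was -0.49. After scaling to miRNA reads it was -1.51 (adjusted p = 0.255). Without the 1-month libraries the rho with age was -0.32 in place of -0.52, and in males only it was -0.33. Levels of 0.717 rpmm lie inside the range of what 3 reads were worth over all aging libraries. That worth is not given for the pancreas libraries alone. How close the later course of miR-503-5p in pancreas came to the limit of detection is therefore not settled.

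In skin, miR-503-5p fell (rho = -0.61 over 47 libraries, permutation test, adjusted p = 0.000403, background 13.2%). Medians went from 46.8 rpmm at 1 month to 23.3 at 3 months, 11.6 at 15 months and 10.6 at 18 months, and were 22.8 at 21 months (2 libraries), 16.6 at 24 months (2 libraries) and 13.3 at 27 months (4 libraries). Of the 2 libraries of 21 months, replicate 24 had a miRNA profile closer to liver (r = 0.99) than to skin (r = 0.85). The log2 differences from 3 months were -0.996 (SE 0.32, adjusted p = 0.0228) at 15 months and -1.06 (SE 0.32, adjusted p = 0.0159) at 18 months. In those contrasts 17.3% and 15.3% of all skin miRNAs were lower and the median over all was -0.51 and -0.34. After scaling to miRNA reads the differences were -0.37 and -0.52, neither past the test. The other arm of the same hairpin, miR-503-3p, fell too (rho = -0.66, adjusted p = 0.000389). miR-195a-5p was also lower in skin at 15 months (-1.09, SE 0.36, adjusted p = 0.0267), with 193 to 599 rpmm against 314 to 1126 at 3 months, and was at -0.40 (adjusted p = 0.624) on the scale of miRNA reads.

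A test of the slope on age in one tissue against the mean slope of the other tissues passed for 11 pairs of the family (background 7.46%). Among them were miR-322-5p in lung (-0.068 log2 per month, SE 0.017, adjusted p = 0.00241) and in pancreas (-0.057, SE 0.019, adjusted p = 0.0366), and miR-503-5p in pancreas (-0.059, SE 0.016, adjusted p = 0.00365) and in skin (-0.049, SE 0.015, adjusted p = 0.0278). miR-503-5p in lung did not pass it.

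**Figure D4:**
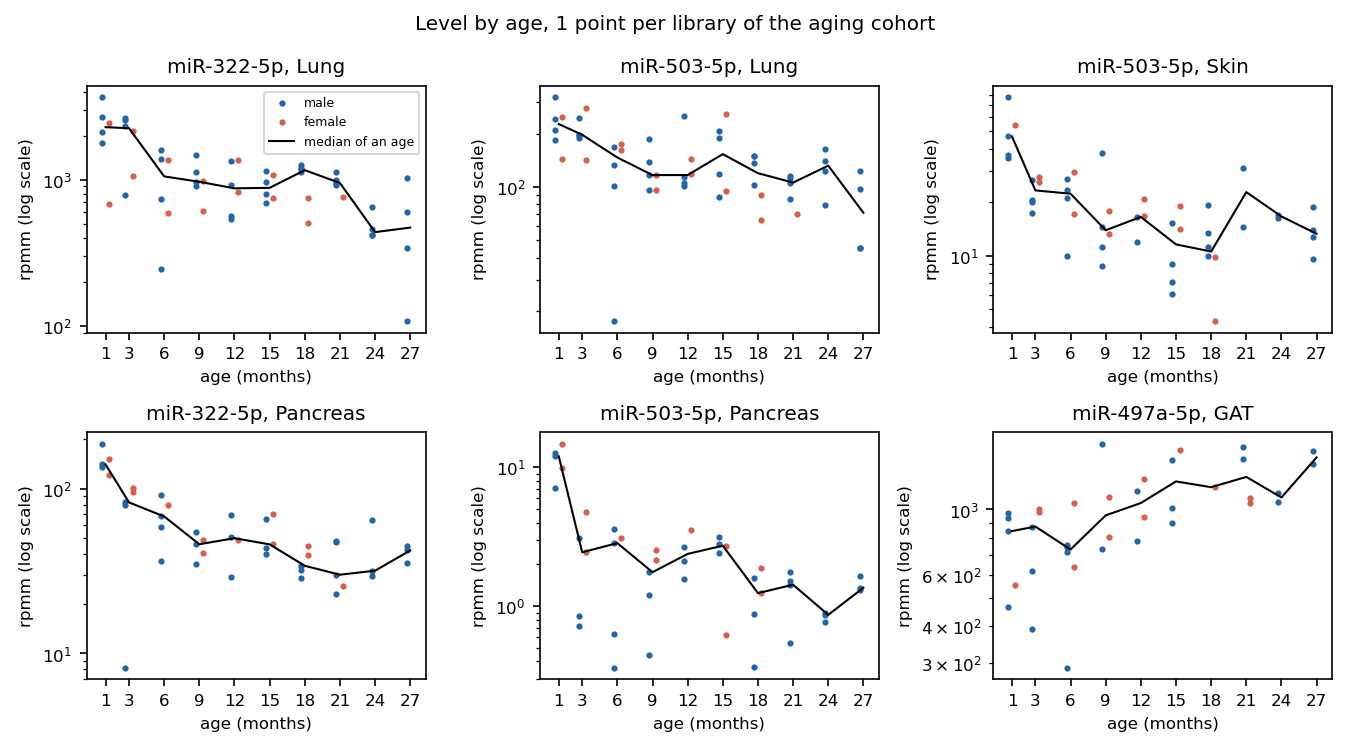
Level in rpmm (log scale) by age in months for 6 pairs of member and tissue, with 1 point per library (males blue, females red, moved sideways by 0.3 months for legibility) and a line through the median of each age. miR-503-5p in pancreas drops between 1 and 3 months, miR-322-5p in lung has all 4 libraries of 24 months below those of 3 months, and miR-497a-5p in GAT rises. The pancreas library of miR-503-5p at 0 cannot be drawn on a log scale.

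The chromosome 11 pair moved in the other direction in fat and intestine. miR-497a-5p in GAT had the strongest rise of the family (rho = 0.69 over 37 libraries, permutation test, adjusted p = 0.000676, background of rising miRNAs in GAT 6.58%). Its libraries of 3 months spanned 391 to 1003 rpmm with a median of 875, those of 15 months 897 to 1590.0 with a median of 1246, and the 2 of 27 months were at 1429 and 1578 rpmm, above all of those at 3 months. The rho stayed between 0.60 and 0.70 on both other scales, in males alone, and without the youngest or the oldest mice. miR-195a-5p in GAT had a rho of 0.44 and was not called.

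In small intestine both rose, miR-195a-5p with rho = 0.54 (adjusted p = 0.00406) and miR-497a-5p with rho = 0.53 (adjusted p = 0.00488), over 50 libraries and against a background of 1.29%. miR-497a-5p had medians of 227 rpmm at 3 months, with a range of 51.8 to 333, and of 463 rpmm at 21 months, with a range of 292 to 538. The difference between 21 and 3 months, which stands for healthy aging in the study, was 1.30 on the log2 scale (SE 0.33, limma, adjusted p = 0.00897), in a tissue where 12.5% of miRNAs were higher, and it was the 1 call of the family in that contrast over 14 tissues. It was 0.85 (adjusted p = 0.0831) without the library at 51.8 rpmm, small intestine of 3 months replicate 29. The summed intestine markers were at 16547 to 135384 rpmm at 21 months, with a median of 57271, and at 81471 to 97387 at 3 months, with a median of 89013. Fibroblast markers had medians of 3646 and 2698 rpmm and red blood cell markers of 145 and 71.3. None of these markers was called by limma, and their part in the result was not tested. On the scale of miRNA reads both rhos were under the threshold, at 0.40 and 0.47.

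In MAT, miR-195a-5p rose with rho = 0.53 (adjusted p = 0.00388, background 6.43%), with 818, 936 and 1417 rpmm at 27 months against 457 to 651 at 3 months. All 3 of those oldest libraries had profiles closer to GAT or SCAT than to MAT, and without the libraries closest to another tissue the rho was 0.42. White blood cell markers moved with age in MAT as well, 3 of 4 of them rising, with rho from 0.38 to 0.71. Their part in the result was not tested.

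In liver, 5 members were higher at 27 than at 3 months, and the X-linked pair was not called. miR-15a-5p held 1209 to 2372 rpmm at 3 months with a median of 1367, and 2854 to 3825 at 27 months with a median of 3119, without overlap (log2 difference 1.07, SE 0.31, adjusted p = 0.00897). miR-195a-5p went from 32.8 to 91.7 rpmm at 3 months to 104 to 211 at 27 months, also without overlap (1.22, SE 0.31, adjusted p = 0.00293). miR-497a-5p did not overlap either, with 44.1 to 80.8 against 112 to 178 rpmm (1.21, SE 0.46, adjusted p = 0.0391). miR-15b-5p (1.21, adjusted p = 0.00852) and miR-16-5p (0.91, adjusted p = 0.0309) completed the group. Leaving out 1 library ended the call of miR-497a-5p in 7 of 10 cases (adjusted p up to 0.105) and that of miR-16-5p in 5 of 10 (up to 0.117), and of the other 3 members in none. In this contrast 28.1% of all liver miRNAs were higher and the median over all of them was 0.55. After scaling to miRNA reads the 5 differences were between 0.24 and 0.56 and none passed the test. The miRNA share was 19.3% to 25.8% at 27 months and 8.496% to 20.8% at 3 months, and the summed white blood cell markers were at 1055 to 2291 against 369 to 1055 rpmm, with 3 of 4 called. Their part was not tested.

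At 6 months miR-15a-5p, miR-16-5p and miR-195a-5p were higher in liver than at 3 months (0.89, 0.87 and 0.89, adjusted p = 0.0293, 0.0361 and 0.0293), against a background of 14%. These calls were lost on leaving out 6, 8 and 5 of the 12 libraries in turn. The miRNA share was 16.5% to 23.3% at 6 months against the 8.496% to 20.8% of 3 months. Summed fibroblast markers were at 899 to 1490.0 against 430 to 835 rpmm, with 1 of 2 called, and white blood cell markers at 870 to 1339 against 369 to 1055, with 1 of 4 called. Their part was not tested. miR-15b-5p was higher at 18 months (1.10, adjusted p = 0.0193, background 9.18%) and miR-195a-5p at 24 months (1.08, adjusted p = 0.0308, background 9.98%). All these contrasts share the 6 libraries of 3 months. In the opposite direction, miR-15b-5p was lower in liver at 3 months than at 1 month (-1.28, SE 0.32, adjusted p = 0.0133, background of lower calls 2.0%), with 58.6 to 110.3 rpmm against 103 to 339. Over all ages the rho was called for miR-15a-5p, at 0.53 (adjusted p = 0.000367, background 9.98%), and it was 0.53 on the scale of miRNA reads and 0.45 with median-ratio scaling.

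In BAT, miR-16-5p rose with rho = 0.53 over 31 libraries (permutation test, adjusted p = 0.0275, background 15.2%), and the other members had rhos of 0.36 to 0.50 while the median over all BAT miRNAs was 0.39. The slopes of 6 members, all but miR-15b-5p, were steeper than the mean slope of the other tissues, from 0.073 log2 per month for miR-497a-5p to 0.16 for miR-322-5p. The background of this test was 7.46% over all tissues and is not given for BAT alone. Whether these members stand apart from the other BAT miRNAs is therefore not settled. BAT libraries differed widely. In the 8 with a miRNA share under 50% of the tissue median, miR-16-5p ranged from 37.1 to 179 rpmm, and in the other 23 from 34.5 to 5680 with a median of 2519. The miRNA share itself rose with age in BAT (rho = 0.55). The rho of miR-16-5p was 0.32 on the scale of miRNA reads and 0.61 without the 8 libraries.

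Over all later ages against 3 months, 12 of the pairs of member, tissue and age tested were higher (background 1.27%) and 8 were lower (background 1.5%). With 84 to 105 pairs of member and tissue tested at each age, both counts were near their background. By age, the background of higher and of lower calls over all tissues was 0.901% and 1.01% at 6 months, 0.264% and 2.79% at 15 months, 1.02% and 1.97% at 18 months, 2.24% and 1.62% at 21 months, 1.3% and 0.106% at 24 months and 4.42% and 2.64% at 27 months. Those not yet given were miR-16-5p in kidney at 27 months (1.88, SE 0.59, adjusted p = 0.0451, background 5.82%) and miR-16-5p and miR-195a-5p in limb muscle at 15 months (-2.06 and -1.80, adjusted p = 0.0490 and 0.0489, background 22.2%). In kidney the 27-month libraries were at 4269, 5097, 5299 and 5695 rpmm, and those of 3 months at 425, 597, 1939.9, 2762 and 3638. The 2 lowest had low miRNA shares, as 3-month kidney ranged from 1.73% to 30.2%, and without such libraries the difference was 0.91 (adjusted p = 0.11). The summed white blood cell markers of kidney were at 1417 to 2625 rpmm at 27 months and 141 to 1120.1 at 3 months, and their part was not tested. In limb muscle 2 of 5 libraries of 15 months were at 68.8 and 114 rpmm of miR-16-5p and the other 3 at 791 to 1649, against 1331 to 2860 at 3 months, and without libraries of low miRNA share the difference was -0.57 (adjusted p = 0.792).

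Between 1 and 3 months, 3 of 98 pairs of member and tissue were higher at 3 months (background 0.892%) and 2 were lower (background 0.866%). The higher ones were all in MAT (background there 9.14%) and rested on 1 library. MAT of 1 month replicate 21, with a miRNA share of 0.798%, held 4.91 rpmm of miR-195a-5p, against 418 and 549.6 rpmm in the other libraries of that age and 457 to 651 at 3 months. Without it the differences were 0.11 for miR-195a-5p, 0.22 for miR-16-5p and -0.01 for miR-15a-5p. The lower ones were miR-503-5p in pancreas and miR-15b-5p in liver, given above. Of the neighbours, miR-542-3p was lower in pancreas too (-1.04, SE 0.28, adjusted p = 0.0253), and in skin 6 neighbours from the X chromosome were lower at 3 months, led by miR-542-3p (-1.65, SE 0.27, adjusted p = 0.000137). The background of lower calls in this contrast is not given for skin alone. How far these neighbours stand apart from the other skin miRNAs is therefore not settled.

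Females and males were compared up to 21 months with age as a factor. Of 112 pairs 1 was higher in females (background 1.88%) and 3 were lower (background 2.6%). With 112 pairs tested, both counts were near their background. The lower ones were of the X-linked cluster. The background of lower calls was 4.44% in GAT and 2.07% in marrow, and that of higher calls in liver was 3.99%. In GAT, miR-322-5p ranged from 547 to 2138 rpmm in 13 libraries of females, with a median of 1294, and from 1245 to 3548 in 20 of males, with a median of 2464 (log2 difference -0.80, SE 0.19, limma, adjusted p = 0.00489). miR-503-5p in GAT had medians of 61.2 in females and 103 rpmm in males (-0.70, SE 0.19, adjusted p = 0.0124), and its neighbours miR-351-5p, miR-450a-2-3p and miR-450b-3p were lower in females as well. Both differences held on every scale tried, but that of miR-503-5p was not called with the plate as a covariate (-0.63, adjusted p = 0.0569). GAT is the gonadal depot, which differs between the sexes in location. Striated muscle markers were higher in the GAT of females, 3 of 3 called by 1.28 to 2.96 on the log2 scale, and 1 of 2 endothelial markers was lower. Their part was not tested.

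In marrow, miR-503-5p was at 73.0 to 239 rpmm in 16 libraries of females and at 120.0 to 289 in 32 of males (-0.50, SE 0.12, adjusted p = 0.0107), with medians of 143 and 191. The difference was -0.38 on the scale of miRNA reads and still passed the test. miR-15a-5p in liver was higher in females (0.54, SE 0.15, adjusted p = 0.0120), with medians of 2657 and 2340.3 rpmm, but not with the set of title numbers as a covariate (0.38, adjusted p = 0.277).

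The parabiosis cohort asks whether an aged mouse that shares blood with a young one differs from an aged mouse joined to an aged one, a contrast called REJ (HA minus IA), and the reverse for young mice, called ACC (HY minus IY). Of 42 pairs of member and tissue in REJ, 1 was higher and none was lower by limma (background 0.747% and 0.218%). This was miR-15b-5p in GAT. The 7 HA libraries held 164 to 469 rpmm with a median of 309, and the 8 IA libraries 113 to 228 with a median of 151. HY libraries ranged from 159 to 302 and IY from 97.6 to 247 rpmm. The HA and IA groups overlapped, since 2 HA libraries lay below the highest IA library, and the log2 difference was 0.84 (SE 0.22, adjusted p = 0.0363, background in GAT 3.22%).

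That call was close to the threshold. It was lost when any of 10 of the 15 HA and IA libraries was left out, with 0.73 as the lowest difference, and with the sequencing pool as a covariate (0.80, adjusted p = 0.0510). The white blood cell markers summed to a median of 6078 rpmm in HA and 2541 rpmm in IA GAT, with ranges of 732 to 7194 and 811 to 4628, and none of the 4 was called. Fibroblast markers had medians of 6554 in HA and 3895 in IA, and striated muscle markers of 387 and 815 rpmm, with 1 of 3 called lower in HA. The liver marker reached 17055 rpmm in 1 HA library, against at most 189 in IA. Their part was not tested. miR-15a-5p and miR-16-5p were not called in GAT.

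In ACC none of the 42 pairs was called by limma or by edgeR and 0 had an unadjusted p under 0.05, with log2 differences from -0.49 to 0.29. The background was 0.0% in both directions over all miRNAs. IA and IY mice differ in their own age and in that of the partner, and both were joined within their group. They had no called member by limma or edgeR (background 3.43% higher and 4.7% lower), although 5 pairs had an unadjusted p under 0.05. The widest of these was miR-322-5p in MAT at -1.56 (SE 0.57, adjusted p = 0.121), with 37.9 to 543 rpmm in IA and 202.7 to 1759 in IY. With the joined pair as a block there were 2 calls in place of 0, miR-322-5p (-1.54, SE 0.47, adjusted p = 0.0327) and miR-503-5p (-1.27, SE 0.42, adjusted p = 0.0394), both in MAT. The correlation of partners in MAT was negative, at a median of -0.45, and both calls were made only with the block. Lower pairs over all miRNAs were 231 of 3211 with the block and 151 without it.

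Between partners, HA minus HY, 2 pairs were lower and none was higher (background 4.3% and 5.51%). miR-503-5p in heart held 37.9, 39.8, 41.9, 47.5, 50.5, 54.6 and 61.0 rpmm in HA and 54.1, 55.01, 62.3, 75.4, 92.7, 98.1 and 107 in HY, sorted by level, with an overlap of 2 libraries on each side (log2 difference -0.67, SE 0.16, limma, adjusted p = 0.00403, background in heart 8.53%). No library left out removed the call. The IA and IY hearts stood at 34.6 to 61.9 and 56.9 to 77.4 rpmm, a log2 difference of -0.37 (adjusted p = 0.0795). Of its neighbours, miR-351-5p and miR-542-3p were lower in HA than HY heart (-0.73 and -0.55), and miR-542-3p and miR-450b-3p were lower in IA than IY heart (-0.49 and -0.38). In the aging cohort, heart miR-503-5p had a rho with age of -0.30 and was not called.

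miR-15b-5p in limb muscle was also lower in HA than HY, at 20.6 to 62.0 rpmm with a median of 38.4 against 46.6 to 69.1 with a median of 62.6 (-0.62, SE 0.19, adjusted p = 0.0263, background 9.29%). The groups overlapped, and without HA replicate 11A the difference was -0.47 (adjusted p = 0.0907). In the aging cohort its rho with age in limb muscle was -0.46, short of the threshold. Summed red blood cell markers of limb muscle had medians of 465 rpmm in HA and 969 in HY, and fibroblast markers of 2481 and 3777. White blood cell markers had medians of 575 and 628 rpmm. Their part was not tested. With the joined pair as a block there were 3 calls in place of 2, the added one being miR-497a-5p in limb muscle (-0.43, SE 0.15, adjusted p = 0.0483). Age and strain cannot be told apart in the HA to HY contrasts.

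**Figure D5:**
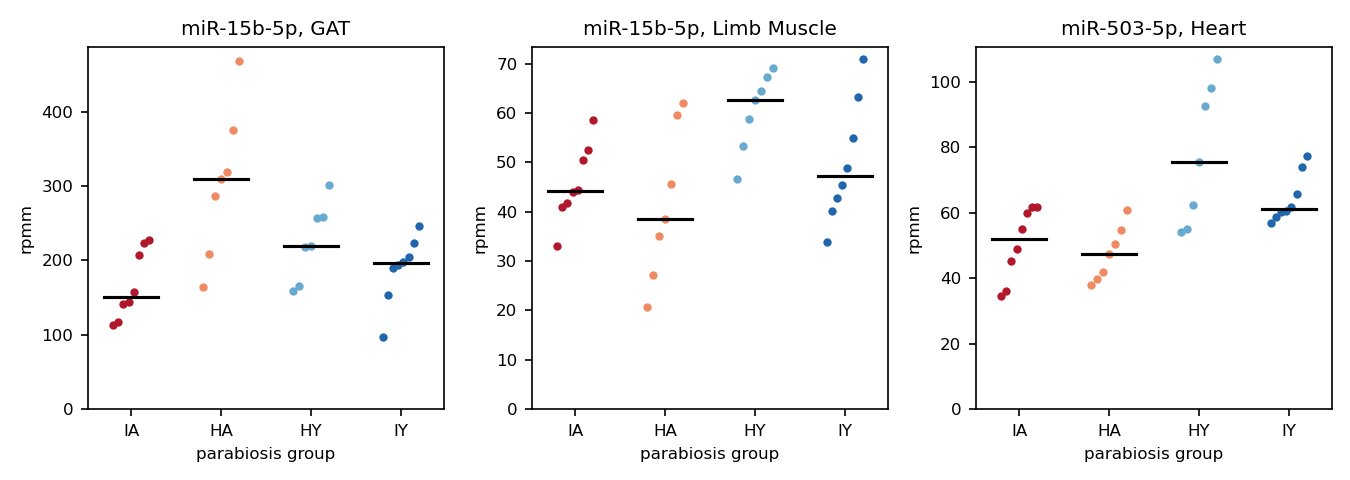
Level in rpmm of miR-15b-5p in GAT and limb muscle and of miR-503-5p in heart in the isochronic aged (IA), heterochronic aged (HA), heterochronic young (HY) and isochronic young (IY) groups, with 1 point per library sorted within the group and a bar at the median. Each axis starts at 0. In GAT 5 of 7 HA libraries lie above all 8 IA libraries, and in heart the HA and HY ranges share only the stretch from 54.1 to 61.0 rpmm.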

How the data were processed

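The authors extracted total RNA, made small RNA libraries and assigned reads with miRMaster and Bowtie to miRBase, allowing 1 mismatch, and they kept libraries with at least 2 times 1000000 aligned reads and 1 of several identical paralogs. The build named in the submitters' processing notes is mm10. The deposited values are a signal in reads per 1000000 mapped reads, and the deposited rows of a library do not sum to a fixed total. Whole reads were recovered for 98.97% of miRNA values in the aging table and 98.84% in the parabiosis table, within 0.05 reads. edgeR (4.0.16), run on those reads with the quasi-likelihood test as an alternative, called 3247 of 92555 tests over all miRNAs and limma called 2884. Another 2 value columns of the aging cohort match no sample's labels and were not used.

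Values were tested as log2(rpmm + 1) with limma (3.58.1, empirical Bayes with trend, R 4.3.3), keeping miRNAs of at least 1 rpmm in at least 10% of a tissue's libraries. A fold on this scale understates changes of low miRNAs. Contrasts of ages needed 3 libraries in each age. P-values were adjusted by Benjamini-Hochberg over all miRNAs of a tissue and contrast, with a threshold of 0.05. Spearman's rho and steps between tissues used 100000 permutations, all two-sided (Python 3.11, SciPy). Replicates are separate mice. In the parabiosis cohort, the joined pair was tried as a block because partners share a circulation. The correlation of partners' deviations had medians from -0.45 in MAT to 0.31 in liver, with no tissue in which every pair was over 0.1.

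The named miRNAs were the 7 members, with 17 other arms and neighbours of their hairpins as partners. The members, the partner and marker lists and the tests were chosen with earlier results of these data known. The tests were tested on simulated data with 200 changed miRNAs, of which limma recovered 187 for liver at 27 against 3 months and 200 for HA against IA in GAT. False calls numbered 7 and 5. Each seeded change was larger on the log2 scale than any member difference called in those contrasts, so recovery at the reported sizes is not shown. Alternatives were other scales, pseudocounts and filters, another test, males only, sets of 12 title numbers, plate or pool as covariates, the study's rule of ratios, ages or libraries left out and the block. Counting intervals were not used, and the worth of 3 reads covers counting error only. The strain of the HY mice is not reported here.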

Additional observations from a re-analysis of the deposited data

Results flagged for a closer look

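Among 44 groups of member, tissue and age tested for a sample far from the others, 2 held one, and chance alone marks about 1 in 20 groups. miR-195a-5p was at 651 rpmm in MAT of 3 months replicate 05, with the nearest library at 513 rpmm, and at 228 rpmm in liver of 6 months replicate 56, with the nearest at 126.4 rpmm.

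The slope on age differed from the mean slope of the other tissues, by a test of that difference in limma, in 11 pairs (background over all tissues 7.46%, with no share for BAT alone). In BAT the differences in log2 per month were 0.11 for miR-15a-5p, 0.13 for miR-16-5p, 0.11 for miR-195a-5p, 0.16 for miR-322-5p, 0.073 for miR-497a-5p and 0.14 for miR-503-5p. They were -0.068 for miR-322-5p in lung, -0.057 for miR-322-5p and -0.059 for miR-503-5p in pancreas, -0.049 for miR-503-5p in skin and -0.052 for miR-497a-5p in spleen.

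The log2 difference between 3 and 1 month departed from the mean of the other tissues in 7 pairs (background 1.24%). In limb muscle the departures were 1.77 for miR-15a-5p, 2.35 for miR-16-5p and 2.31 for miR-322-5p. In MAT they were 2.01 for miR-16-5p and 2.32 for miR-195a-5p, and in pancreas -1.84 for miR-16-5p and -1.56 for miR-503-5p. Without the libraries of low miRNA share, a setting chosen after seeing the data, 0 such departures passed.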

How the results depend on the processing

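Among values of named pairs under alternatives, 368 kept their direction and side of the threshold, 148 kept the direction only, and 1 turned, miR-15a-5p in MAT between 3 and 1 month, which ranged from -0.013 (without MAT of 1 month replicate 21) to 2.44 on leaving out 1 library. Causes were not tested. Calls over all miRNAs moved with the setting as well, so a changed count of members is not by itself a trait of the family.

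Counts of higher pairs between 1 and 3 months were 3, but 0 on miRNA reads, with no filter, by edgeR, in males, with set or plate as a covariate and without libraries of low miRNA share, and 7 by the study's ratio rule. Counts of lower pairs were 2, but 4 with median-ratio scaling and without low-share libraries, 1 with a mean of at least 10 rpmm and in males, and 13 by the ratio rule. Leaving out 1 library gave 0 to 6 higher and 1 to 9 lower. MAT of 1 month replicates 04, 21 and 35 and of 3 months 01, 05, 12 and 17 moved the former, and kidney of 1 month replicate 09 (9), pancreas of 3 months 25 (4) and 46 (5), and liver of 1 month 54 and 3 months 14 (1 each) the latter. Over all miRNAs, higher pairs were 69 of 7736, against 20 on miRNA reads and 24 by edgeR. Lower pairs over all miRNAs were 67, against 149 with median-ratio scaling.

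Later ages against 3 months gave 12 higher pairs, but 7 with no filter, 25 with set, 36 with plate and 76 by the ratio rule. The 8 lower pairs became 15 without libraries closest to another tissue, 5 without low-share libraries, 5 with set, 2 with plate and 47 by the ratio rule. Leaving out 1 library gave 5 to 22 and 6 to 13, moved by liver of 3 months replicates 14, 28 and 35, kidney 23, SCAT 43 and skin 35. Over all miRNAs, higher pairs at 12 months were 436 with plate and 13 without it, and at 27 months 331 and 341. At 15 months higher pairs over all miRNAs were 154 with set and 22 without it, and lower pairs 106 with plate and 232 without it. The 21 to 3 months count of 1 was 5 on miRNA reads, 6 by median ratio, 2 at a mean of 10 rpmm, 4 without libraries closest to another tissue, 5 by edgeR, 4 without low-share libraries, 0 in males, 3 with set or plate and 18 by the ratio rule. Leaving out 1 library gave 0 to 5, with 0 without small intestine of 3 months replicate 29 and 5 without kidney of 3 months 23 or liver of 21 months 17. It was 2 without kidney of 3 months 47, pancreas of 3 months 02, SCAT of 3 months 43 or 48 or 21 months 14, or small intestine of 3 months 11 or 21 months 37 or 49, and 3 without liver of 3 months 08 or SCAT of 3 months 16. The sex count of 4 was 7 by median ratio and 8 without libraries closest to another tissue. Over all miRNAs 166 pairs were higher in females and 230 lower. These were 266 and 267 by median ratio and 183 and 345 without libraries closest to another tissue.

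For rho, 6 rising pairs became 11 in males and with set means removed, 3 without 24 and 27 months and 17 by adjusted p. The 5 falling pairs became 8 on miRNA reads, 1 without 1-month libraries and 11 by adjusted p. The 11 slopes were 7 in males, the 7 early departures 1 on miRNA reads, 3 without libraries closest to another tissue and 0 without low-share libraries, and the 40 tissue steps 13 at 3 to 9 months.

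With the joined pair as a replicate block, REJ kept 1 call, ACC 0, IA against IY had 2 in place of 0 and HA against HY 3 in place of 2. Over all miRNAs the block moved lower pairs from 151 to 231 in IA against IY and from 138 to 159 in HA against HY. REJ fell to 0 with the pool as a covariate and rose to 3 by the ratio rule, with 0 to 1 on leaving out a library. With the pool, 11 pairs over all miRNAs were higher in REJ, against 24 without it. IA against IY had 1 on miRNA reads and by median ratio, 2 by the ratio rule, and 0 to 2 on leaving out a library, with 2 without limb muscle IY replicate 10B or MAT IY replicate 16A. HA against HY had 1 by edgeR and 1 to 2 on leaving out a library, with 1 without limb muscle HA replicates 5A or 11A or HY 1B, 5B or 12B. In REJ the GAT libraries HA 2A, 5A, 11A, 12A and 14A and IA 6A, 7A, 9B, 19A and 19B each ended the call. The settings with the pool and without low-share libraries were chosen after seeing the data. How close levels of miR-503-5p in pancreas came to the worth of 3 reads is not settled.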
